A study of Mus musculus and Homo sapiens
Mus musculus with 14 samples.

Results

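The genes described here are 10 splicing regulators of the mouse retina: the 6 CELF genes (Celf1 to Celf6), the Musashi genes Msi1 and Msi2, and the RBFOX genes Rbfox1 and Rbfox2. They were found by gene symbol, and all 10 were present among the 24460 genes listed for the retinal layers and the 18415 listed for the amacrine cells. The set was chosen by measured values of these same libraries, namely the level of Msi1 in the outer nuclear layer and the level of Celf6 in TH+ cells. Those values are therefore given below as a description without a test. The other members and the lists were also chosen with earlier results of these data known, so their p-values do not come from a blind choice.

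Light-Seq attaches DNA barcodes by patterned light to complementary DNA inside fixed tissue, so that cells chosen under the microscope can be sequenced together while the section stays intact. Retinas came from wild-type CD1 IGS mice in the third postnatal week, with no transgene and no treatment in any group. In 4 sections of a single animal, 3 layers were barcoded: the outer nuclear layer (ONL, photoreceptors), the bipolar cell layer (BCL) and the ganglion cell layer (GCL). In 5 further sections, an antibody to tyrosine hydroxylase (TH) was used to barcode the few dopaminergic amacrine cells (TH+) and, separately, neighboring amacrine cells without the stain (TH-), so each library is a pool of cells. Mixed cultures of mouse 3T3 fibroblasts and human HEK kidney cells (HEK293T in the labels, an HEK293 line carrying eGFP in the methods) in 3 wells served as a non-retinal background. Counts are unique molecular identifiers (UMIs), which collapse PCR copies of a molecule, and each level is given as CPM, which sets a gene's UMIs relative to the sum over its library. Layer libraries held 193869 to 801105 UMIs, TH+ libraries 30317 to 87449 and TH- libraries 134394 to 200344, which makes the TH+ values the least precise.

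RNA-binding proteins of these families decide, among other tasks, which exons of a pre-mRNA are kept. CELF proteins bind GU-rich RNA and also act on mRNA stability and translation; Celf1 and Celf2 are widely expressed, whereas Celf3 to Celf6 are mainly neuronal. Musashi proteins bind short UAG-containing sites, are best known as translational regulators of neural stem cells, and are required in photoreceptors for the inclusion of photoreceptor-specific exons in genes of the cilium and synapse. RBFOX proteins bind a conserved hexamer near exons and promote or repress neuronal exons according to the side on which they bind.

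The barcodes that separated the populations were 6 bases long and were the only sequence that assigned a molecule to a layer or cell group. The ONL carried TATGGA, the BCL GTTAGG and the GCL AGGGTA. In the amacrine experiment, TH+ cells carried GTTAGG and TH- cells AGGGTA, so the same strands marked other populations in another set of sections.

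Family members resemble each other, and each count below rests on the bases in which they differ. The following are the most alike in-frame coding windows of 60 bases that lie within 1 exon of the canonical transcript of each gene, read from the GRCm39 genome with GENCODE release M39 and written 5′ to 3′ on the coding strand, with the bases that differ within a pair in capitals.
Msi1 (chr5:115578552-115578611, plus strand, exon 8): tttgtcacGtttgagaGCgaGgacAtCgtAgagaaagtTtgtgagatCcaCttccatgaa
Msi2 (chr11:88304749-88304808, minus strand, exon 8): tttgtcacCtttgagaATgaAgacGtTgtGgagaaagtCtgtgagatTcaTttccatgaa
Celf3 (chr3:94396843-94396902, plus strand, exon 12): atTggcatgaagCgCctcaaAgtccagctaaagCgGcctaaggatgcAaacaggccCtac
Celf6 (chr9:59512305-59512364, plus strand, exon 11): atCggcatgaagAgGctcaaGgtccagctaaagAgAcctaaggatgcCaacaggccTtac
Rbfox1 (chr16:7110082-7110141, plus strand, exon 7): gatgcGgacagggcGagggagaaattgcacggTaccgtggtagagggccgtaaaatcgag
Rbfox2 (chr15:76989777-76989836, minus strand, exon 6): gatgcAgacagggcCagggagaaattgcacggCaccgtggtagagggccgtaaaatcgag

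The Musashi pair shared 50 of the 60 bases, the Celf3 and Celf6 pair 52, and the RBFOX pair 57. The longest identical run anywhere in the coding sequences was 44 bases for Msi1 and Msi2, 20 for Celf3 and Celf6, and 29 for Rbfox1 and Rbfox2. Over whole exon sequences, at most 0.1% of the 40-base stretches of any member were also found in another member, and 0.186% to 8.27% in any other gene, on either strand, overlapping genes included. The authors discarded reads that matched several places, which does not remove a stretch that an overlapping gene shares at a single place. Exons of 8 members overlapped a gene on the opposite strand, over 0.718% (Rbfox2) to 9.79% (Celf4) of their exon bases, and the methods name featureCounts at its defaults, which ignore strand. Strand therefore does not tell reads of such a member and of its antisense partner apart there. The overlaps are those of release M39, whereas the authors used an earlier release. Whether such reads were counted or left unassigned was not examined.

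Msi1 (chr5:115567419-115593757, plus strand) encodes the founding mammalian Musashi protein and was, per kilobase of gene length, the leading member in the ONL, the BCL and both amacrine groups. Its ONL level was 1790, 2020, 2023 and 2047 CPM in sections 1 to 4. Its BCL level was 1192, 1233, 1301 and 1187 CPM, and its GCL level 276, 310, 318 and 254 CPM. The 3 layers were thus stepped, with no library of a layer inside the range of the next, and ONL section 1 lay apart from the other ONL sections. On the mean, the ONL stood at 1970 ± 120 CPM (SD, n = 4), which was 1.604 times the BCL and 6.80 times the GCL. These are the values that chose the gene, and no test is given for them.

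The step below the ONL was not used in choosing Msi1 and could be tested. All tests used the quasi-likelihood F-test of edgeR with p-values adjusted by the Benjamini-Hochberg method over all genes tested (11324 in the layers). Msi1 was 3.77-fold higher in the BCL than in the GCL (log2 fold change 1.91 ± 0.12 SE, adjusted p = 4.885e-20), with 4 of 4 sections in that direction. The fold changes of edgeR use TMM scaling, which corrects for a few abundant genes filling a library, and CPM values do not. TMM raised the mean of Msi1 in the ONL to 2230 CPM and lowered that in the BCL to 1110 CPM, so the ratio of ONL to BCL was 2.01 on the TMM scale. In bulk libraries such as these, fewer expressing cells and less RNA per cell cannot be told apart.

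Msi2 (chr11:88230208-88609339, minus strand), the broadly expressed Musashi paralog, followed the same order with smaller steps. Its level was 1057 to 1208 CPM in the ONL, 915 to 1007 CPM in the BCL and 439 to 483 CPM in the GCL, and the 3 ranges did not overlap. It was higher in the ONL than in the BCL by 0.53 ± 0.11 on the log2 scale (adjusted p = 4.229e-05) and higher in the ONL than in the GCL by 1.43 ± 0.10 (adjusted p = 7.783e-18). It was also higher in the BCL than in the GCL by 0.89 ± 0.11 (adjusted p = 1.578e-09). Per kilobase of gene length, the scale on which genes can be compared, Msi1 made up 76.2 ± 1.20% of the summed Musashi level in ONL libraries, 69.7 ± 1.31% in BCL libraries and 53.1 ± 2.42% in GCL libraries (SD, n = 4). In the GCL the paralogs stood at 49.97 ± 5.13 and 44.0 ± 1.84 CPM per kb, and those means differed by about the spread between sections. Msi1 was nevertheless above Msi2 in every GCL library. With the exon bases of GENCODE release M39 in place of the authors' gene lengths, the means were 48.0 ± 4.92 and 37.2 ± 1.55 CPM per kb.

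**Figure D1:**
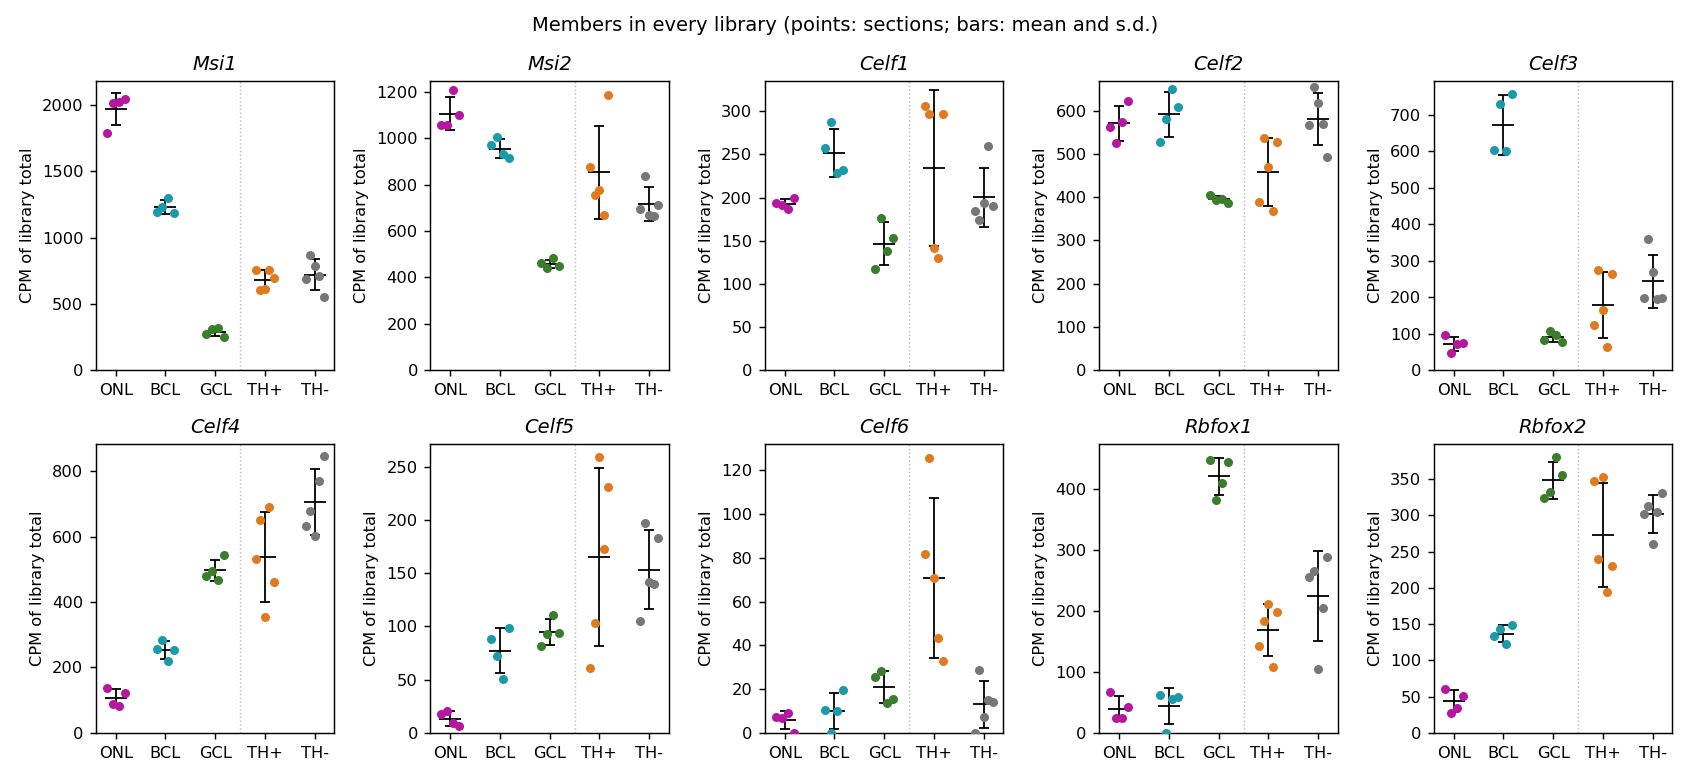
Level of each of the 10 members, in CPM of the library total on a linear axis that starts at 0, in ONL, BCL and GCL libraries (4 sections each) and TH+ and TH- libraries (5 sections each). Points are sections and bars show the mean and SD; Msi1 runs from about 1970 CPM in the ONL to 290 CPM in the GCL, Celf3 peaks in the BCL and Rbfox1 in the GCL.

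Celf3 (chr3:94385602-94399505, plus strand), a neuronal CELF protein, was the member with the sharpest peak in the BCL. Its BCL level was 604, 729, 600 and 756 CPM in sections 1 to 4. Its ONL level was 96.1, 47.0, 70.8 and 74.1 CPM, and its GCL level 82.8, 106, 95.3 and 78.5 CPM. Every BCL library stood several times above every library of the other layers, while the ONL and GCL ranges overlapped. The BCL exceeded the GCL 6.59-fold (log2 fold change 2.72 ± 0.14, adjusted p = 1.196e-22) and the ONL 7.34-fold (log2 fold change of ONL over BCL -2.88 ± 0.15, adjusted p = 2.94e-22). ONL and GCL differed by -0.16 ± 0.18, which did not pass the test (95% interval -0.51 to 0.20, adjusted p = 0.4504). Without section 1, whose ONL library held the most Celf3, the same difference was -0.48 (adjusted p = 0.03749), and without section 2 it turned to 0.11 (adjusted p = 0.6619).

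Celf4, a neuronal CELF protein that restrains excitability in the brain, was graded across the layers, with its top in the GCL. Its GCL level was 480, 496, 467 and 543 CPM in sections 1 to 4, its BCL level 258, 283, 219 and 252 CPM, and its ONL level 137, 88.5, 82.2 and 123 CPM. The layers did not overlap in any library. The log2 fold change of Celf4 against the GCL was -1.14 ± 0.14 in the BCL (adjusted p = 8.046e-10) and -2.02 ± 0.13 in the ONL (adjusted p = 8.995e-20). The BCL stood above the ONL 1.85-fold (adjusted p = 1.532e-05).

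Celf5 (chr10:81295061-81318559, minus strand), another mainly neuronal member, was found in the inner layers at 50.8 to 98.9 CPM (BCL) and 81.5 to 111 CPM (GCL), and in the ONL at 6.45 to 20.8 CPM, from 2 to 15 UMIs per library. All ONL libraries lay below all others, whereas BCL and GCL overlapped. ONL was lower than BCL by 3.95-fold (adjusted p = 5.239e-07) and lower than GCL by 5.40-fold (adjusted p = 4.16e-13). BCL and GCL differed by -0.45 ± 0.22 on the log2 scale, which did not pass the test (95% interval -0.89 to -0.01, adjusted p = 0.103).

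Celf1 (chr2:90770584-90849842, plus strand) and Celf2 (chr2:6544505-7514374, minus strand), the broadly expressed members, varied least. Celf2 measured 524 to 622 CPM in the ONL, 526 to 650 CPM in the BCL and 386 to 405 CPM in the GCL, and only the GCL stood apart. Between ONL and BCL, Celf2 had a ratio of means of 0.9645 by library total and a log2 fold change of 0.27 ± 0.11 on the TMM scale, which did not pass the test (adjusted p = 0.05895) but passed with the section as a block (0.27, adjusted p = 0.04195). Celf2 was higher than in the GCL by 0.68 ± 0.10 on the log2 scale in the ONL (adjusted p = 1.207e-07) and by 0.41 ± 0.11 in the BCL (adjusted p = 0.003077). The BCL difference did not pass the test without a low-count filter (0.30, adjusted p = 0.1059) or without section 3 (0.35, adjusted p = 0.05385). Celf1 measured 187 to 200 CPM in the ONL, 229 to 288 CPM in the BCL and 117 to 177 CPM in the GCL. It was higher than in the GCL by 0.57 ± 0.13 in the ONL (adjusted p = 0.0001228) and by 0.62 ± 0.15 in the BCL (adjusted p = 0.0005433). Between ONL and BCL, Celf1 depended on the scaling: by library total all 4 sections were lower in the ONL, with a ratio of means of 0.766, but on the TMM scale the difference was -0.05 ± 0.15 (adjusted p = 0.8166).

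Celf6 (chr9:59485200-59519885, plus strand), the least abundant CELF gene of each layer per kilobase, rested on 0 to 20 UMIs per layer library. Its layer totals were 57 UMIs in the GCL (21.2 CPM of the pooled libraries, 95% Poisson interval 16.1 to 27.5), 8 UMIs in the BCL (9.98 CPM, 4.31 to 19.7) and 15 UMIs in the ONL (6.60 CPM, 3.70 to 10.9). These intervals, here and below, cover counting error only. GCL exceeded ONL by 2.79-fold (log2 fold change of ONL over GCL -1.48 ± 0.42, adjusted p = 0.002128). The BCL was not separable from either layer at this depth, at -1.22 ± 0.53 against the GCL (adjusted p = 0.06601) and 0.25 ± 0.68 above the ONL (adjusted p = 0.8166). The first of these passed when section 4 was left out (-1.93, adjusted p = 0.01789) and shrank to -0.64 without section 2 (adjusted p = 0.4343), while the difference between ONL and BCL turned direction without section 4 (0.56 for ONL over BCL).

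Rbfox1 (chr16:5124665-7230343, plus strand), an exon regulator of mature neurons, had the largest fold range of the members across the layers. Its GCL level was 447, 382, 410 and 444 CPM in sections 1 to 4. Its ONL level was 67.4, 24.9, 25.1 and 41.9 CPM. In the BCL it was 61.9, 55.9 and 59.3 CPM in sections 1, 3 and 4 and 0 in section 2, where 0 of 208437 UMIs allows a level of up to 14.4 CPM. All GCL libraries stood far above all others, and ONL and BCL overlapped. Rbfox1 was lower than in the GCL by 8.90-fold in the ONL (log2 fold change -3.15 ± 0.19, adjusted p = 4.394e-21) and by 10.8-fold in the BCL (-3.43 ± 0.25, adjusted p = 3.154e-17). Leaving section 2 out changed the BCL value to -3.05 (adjusted p = 3.028e-17). ONL and BCL differed by 0.27 ± 0.36 on the TMM scale (95% interval -0.46 to 1.01, adjusted p = 0.6125), a direction that turned by library total, with a ratio of means of 0.8995, and without section 1 (-0.07).

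Rbfox2 (chr15:76963189-77191303, minus strand), the RBFOX member also used outside the nervous system, was graded across all 3 layers. It measured 324, 333, 381 and 355 CPM in the GCL, 134, 144, 122 and 148 CPM in the BCL, and 61.2, 27.7, 34.2 and 51.6 CPM in the ONL of sections 1 to 4. The 3 ranges did not overlap. GCL exceeded BCL by 2.84-fold (adjusted p = 1.441e-11) and ONL by 7.01-fold (adjusted p = 1.723e-22), and BCL exceeded ONL by 2.47-fold (adjusted p = 2.327e-06).

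Counted over the members, the BCL against the GCL gave 5 genes higher in the BCL (Celf1, Celf2, Celf3, Msi1 and Msi2), 3 higher in the GCL (Celf4, Rbfox1 and Rbfox2) and 2 that did not pass. Over all 11324 genes tested, 16.1% were called higher in the BCL and 20.4% higher in the GCL. For the ONL against the GCL, where Msi1 is left out of the count, 3 of 9 members were higher in the ONL, 5 were higher in the GCL and 1 did not pass, beside 29.3% and 32.2% of all genes. For the ONL against the BCL, 1 of 9 was higher in the ONL (Msi2), 4 were higher in the BCL (Celf3, Celf4, Celf5 and Rbfox2) and 4 did not pass, beside 18.5% and 18.2% of all genes. The median log2 fold change of all genes lay between -0.02 and 0.09 in the layer comparisons. Since the comparisons share layers, they are not independent of one another, and since the sections came from a single animal, these p-values measure the spread between sections. The labels name no separate animals for the amacrine sections either, and the methods refer to the source animal of Light-Seq in the singular. The p-values and SDs of the amacrine sections are therefore also read as spread between sections.

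**Figure D2:**
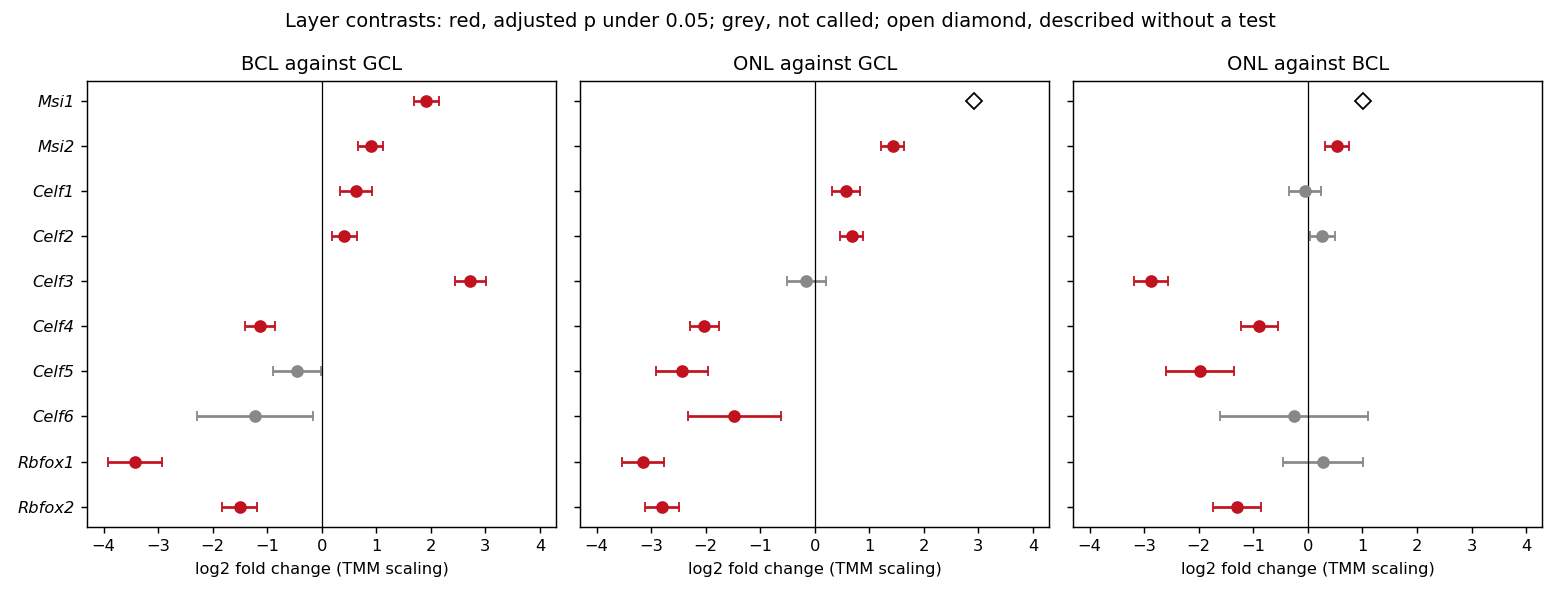
Log2 fold change of each member (x axis, TMM scaling) for the BCL against the GCL, the ONL against the GCL and the ONL against the BCL, with bars for 95% intervals. Red points passed an adjusted p of 0.05, gray points did not, and open diamonds mark Msi1 in the ONL comparisons, which is described without a test; Celf3 lies at 2.72 in the first panel and at -2.88 in the last.

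The layers matched their labels by the marker genes of their cells. Rod genes took 6.26% to 7.65% of the UMIs of ONL libraries, 1.35% to 2.26% in the BCL and 0.505% to 0.849% in the GCL. Ganglion cell genes took 0.678% to 0.762% in the GCL and at most 0.0733% in the ONL and BCL, and bipolar genes 0.655% to 0.728% in the BCL. Each layer library also held markers of other cells: Müller glia genes took 0.655% to 0.726% in the BCL, as large a share as the bipolar genes, and amacrine genes took 0.133% to 0.150% in the GCL. ONL section 1, where Rbfox1, Rbfox2, Celf3 and Celf4 had their highest ONL values and Msi1 its lowest, had the lowest rod share (6.26%) and the highest ganglion share (0.0733%) of the ONL libraries. ONL section 4, with the highest Msi1 (2047 CPM), had nearly the same ganglion share (0.0722%). It also had the highest bipolar (0.127%) and Müller glia (0.110%) shares of the ONL libraries. Celf5 had its highest ONL value in section 2 (20.8 CPM). The part of these other cells in the members' levels was not tested.

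Compared per kilobase, the order of the members differed between layers. In the ONL the order was led by Msi1 (340 ± 20.8 CPM per kb) and Msi2 (106 ± 6.80), followed by Celf1 (22.8 ± 0.631) and Celf2 (22.0 ± 1.56), which did not differ beyond their spread. In the BCL, Celf3 (123 ± 15.04 CPM per kb) came between Msi1 (212 ± 9.12) and Msi2 (91.8 ± 4.01). In the GCL, Rbfox1 (95.7 ± 6.98 CPM per kb) led, ahead of Celf4 (57.9 ± 3.85), Msi1 and Msi2, while Msi2 and Rbfox2 (42.8 ± 3.16) did not differ beyond their spread. That place of Rbfox1 rested on the authors' gene length of 4400 bases. With the 9746 exon bases of GENCODE release M39 for Rbfox1, and the exon bases of the same release for the others, Celf4 (52.5 ± 3.50 CPM per kb), Msi1 (48.0 ± 4.92), Rbfox1 (43.2 ± 3.15) and Rbfox2 (41.0 ± 3.02) lay close together in the GCL. Summed by the authors' lengths over the members of each family, the Musashi level was 446 ± 24.5 CPM per kb in the ONL and 94.0 ± 6.05 in the GCL. The RBFOX level, which covers Rbfox1 and Rbfox2 but not Rbfox3, was 14.4 ± 6.38 and 138 ± 7.37 (9.22 ± 3.82 and 84.1 ± 4.15 with the exon bases). Rbfox3, which is not a member, stood at 3.16 ± 2.10 and 25.8 ± 1.38 CPM per kb in the same layers. The CELF sum was highest in the BCL (219 ± 20.0 CPM per kb), above 127 ± 6.62 in the GCL and 74.2 ± 7.01 in the ONL.

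Within the CELF family the leading gene differed from layer to layer. Celf3 held 55.9 ± 2.04% of the CELF level per kilobase in the BCL, against 17.5 ± 3.45% in the ONL and 13.05 ± 1.49% in the GCL. Celf4 held 45.6 ± 2.82% in the GCL. In the ONL, Celf1 (30.9 ± 2.55%) and Celf2 (29.8 ± 2.46%) together made up most of it. These shares are descriptions from 4 sections and carry no test.

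**Figure D3:**
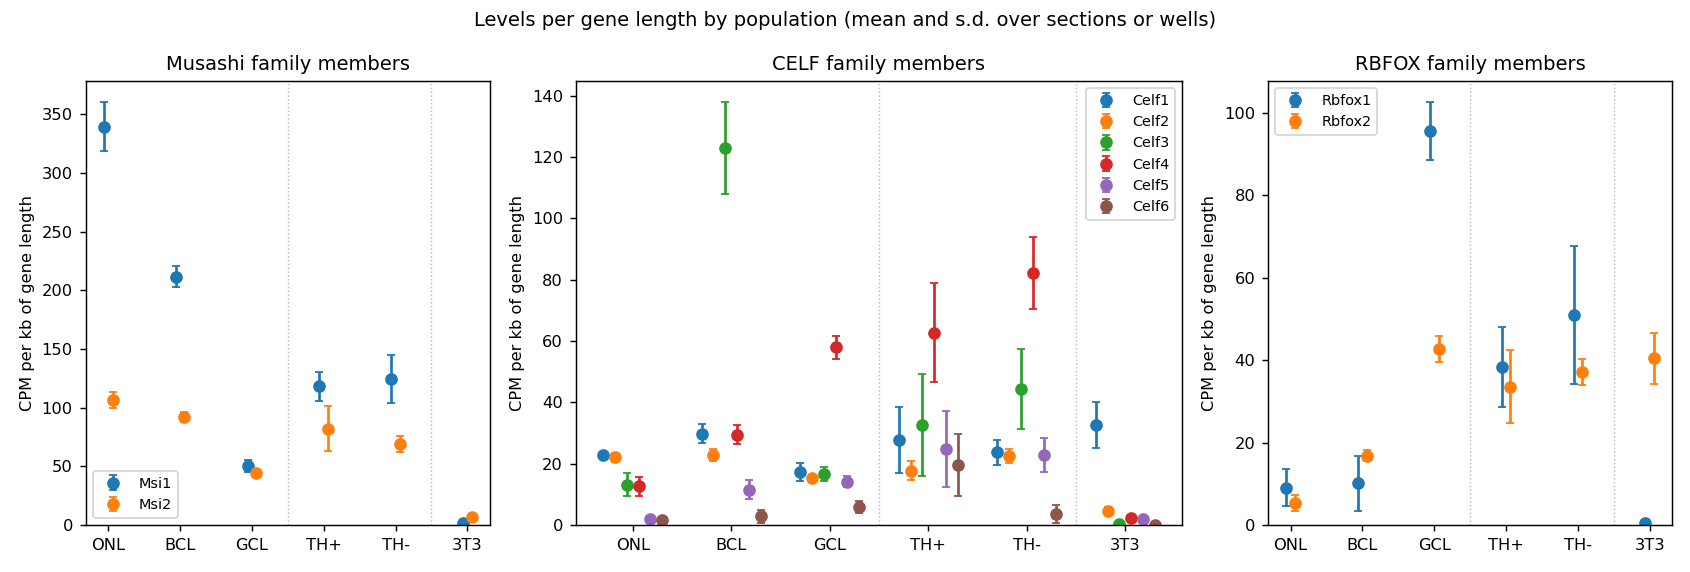
Levels per gene length (CPM per kb, linear axis from 0) of the Musashi, CELF and RBFOX members in the 3 layers, the TH+ and TH- amacrine libraries and 3T3 fibroblasts, which come from separate experiments divided by dotted lines. Points are means and bars SD over 4 sections, 5 sections or 3 wells; Celf3 leads the CELF genes in the BCL (123), Celf4 in the GCL (57.9) and Celf1 in 3T3 cells (32.5).

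In the amacrine sections, Celf6 stood out for its level in TH+ cells, which is why it was chosen. TH+ libraries held 4, 11, 3, 2 and 1 Celf6 UMIs in sections 1 to 5, or 81.7, 126, 70.6, 43.2 and 33.0 CPM. TH- libraries held 0, 5, 1, 3 and 2 UMIs, or 0, 28.9, 7.44, 14.97 and 14.1 CPM. Every TH+ library lay above every TH- library, although the lowest TH+ value (33.0 CPM, 1 UMI) and the highest TH- value (28.9 CPM, 5 UMIs) were close. The means were 70.9 ± 36.5 and 13.1 ± 10.7 CPM (SD, n = 5), a ratio of 5.41. Pooled, 21 of 255496 TH+ UMIs gave 82.2 CPM (95% Poisson interval 50.9 to 126) and 11 of 801567 TH- UMIs gave 13.7 CPM (6.85 to 24.6). These values selected the gene, so they carry no test, and they rest on few molecules.

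None of the 9 other members passed the test between TH+ and TH- cells. In that comparison 45 of 6021 genes (0.747%) were called higher in TH+ cells and 5 (0.083%) higher in TH- cells by edgeR. The 50 calls over all genes became 148 with the section as a block and 29 to 73 when single sections were left out, with 0 members called in each. Of the 9 members, 0 passed by edgeR, 0 by DESeq2, and 0 had an unadjusted p below 0.05. Msi1 measured 755, 606, 612, 757 and 693 CPM in TH+ sections 1 to 5 and 690, 868, 789, 709 and 550 CPM in TH- sections, and the groups overlapped fully (log2 fold change -0.09, 95% interval -0.44 to 0.26). For Msi2 the difference was 0.21 (-0.13 to 0.55), with 4 of 5 sections higher in TH+ cells. Celf4 was lower in the TH+ library in 5 of 5 sections, at 353 to 692 CPM against 603 to 846 CPM, with overlapping ranges (log2 fold change -0.36, 95% interval -0.73 to 0.01, adjusted p = 0.5824).

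The remaining members had wide intervals around small differences. On the log2 scale, TH+ over TH-, Celf1 differed by 0.24 (95% interval -0.26 to 0.74) and Celf2 by -0.34 (-0.70 to 0.03). Celf3 differed by -0.40 (-0.95 to 0.15) and Celf5 by -0.02 (-0.63 to 0.58). Rbfox1 differed by -0.42 (-0.98 to 0.13) and Rbfox2 by -0.16 (-0.60 to 0.28).

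**Figure D4:**
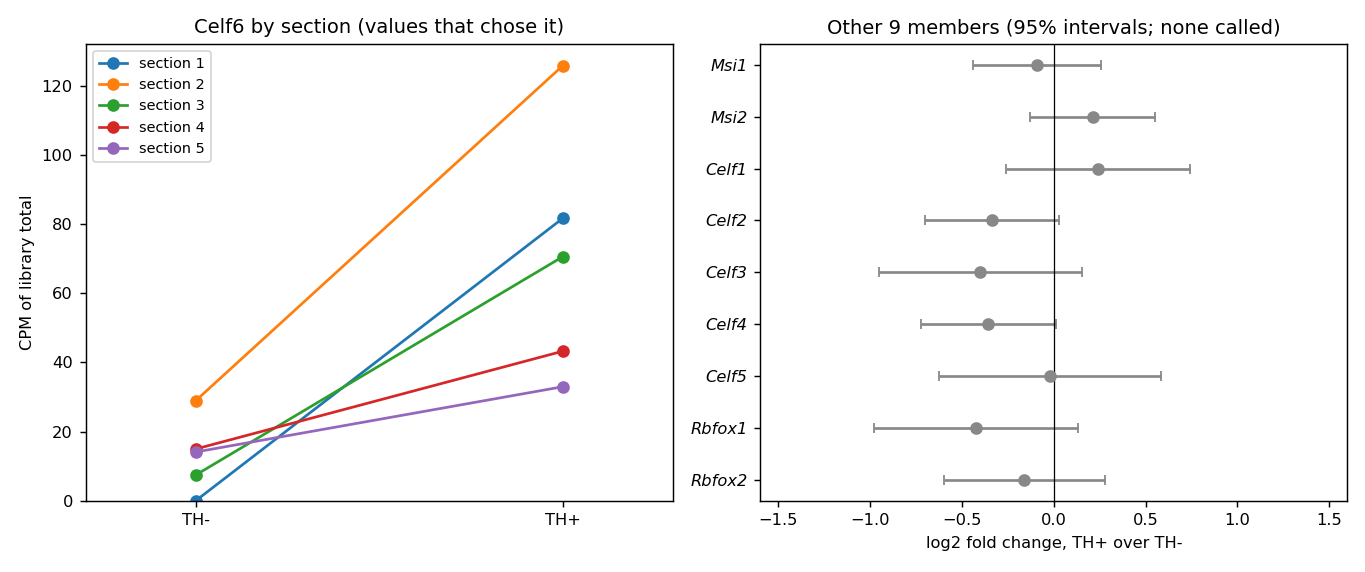
Left, Celf6 in CPM of the library total (linear axis from 0) in TH- and TH+ libraries, with lines joining the libraries of the same section; each TH+ point lies above the TH- point of its section, and section 2 reaches 126 CPM. Right, log2 fold change of the other 9 members, TH+ over TH-, with 95% intervals, none of which passed the test.

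The marker genes separated the amacrine groups as labeled, with RNA of rods and Müller glia present in both. Dopaminergic genes (Th, Slc18a2, Cartpt and Ddc) took 0.210% to 0.432% of TH+ UMIs and 0.0132% to 0.0264% of TH- UMIs, and Ddc was at 0 in all TH- libraries. General amacrine genes took 0.238% to 0.392% and 0.309% to 0.517%, a smaller share in the TH+ library of each section. Rod genes took 1.498% to 3.90% of TH+ UMIs and 0.866% to 2.26% of TH- UMIs, a larger share in the TH+ library of each section. Müller glia genes took 0.259% to 0.385% of TH+ UMIs and 0.358% to 0.603% of TH- UMIs, a smaller share in the TH+ library of each section. The part of rods and Müller glia in the levels of the members was not tested.

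Set beside the layers, the amacrine cells held intermediate levels of most members, in another sequencing run and therefore without a test. Msi1 stood at 684 ± 73.8 CPM in TH+ and 721 ± 119 CPM in TH- libraries, between the BCL and the GCL. Celf4 reached 705 ± 101 CPM in TH- libraries, above its 497 ± 33.1 CPM in the GCL. Rbfox1, at 169 ± 42.6 CPM in TH+ and 224 ± 73.8 CPM in TH- libraries, lay below the GCL and above the BCL and ONL. The mean of Celf5 was above that of any layer, at 165 ± 83.4 CPM in TH+ and 153 ± 36.8 CPM in TH- libraries. Within the CELF level per kilobase, Celf6 made up 10.47 ± 4.35% in TH+ and 1.70 ± 1.29% in TH- libraries (4.396 ± 1.93% and 0.678 ± 0.519% with the exon bases), and Celf4 was the leading gene in both, at 34.4 ± 10.2% and 41.4 ± 5.32%.

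In the cultured fibroblasts and kidney cells, Celf1 and Rbfox2 had the highest mean levels per kilobase. In 3T3 cells, Rbfox2 stood at 329 ± 51.3 CPM, Celf1 at 274 ± 63.3 CPM, Celf2 at 117 ± 31.4 CPM and Msi2 at 72.1 ± 16.1 CPM (SD, n = 3 wells). Msi1 was represented by 5 UMIs over the 3 wells (9.24 CPM of the pooled libraries, 95% Poisson interval 3.00 to 21.6). Celf3 and Rbfox1 had 1 UMI each, and Celf6 had 0 of 540880 UMIs, which allows up to 5.55 CPM. In HEK cells the human genes stood, per kilobase, at 42.7 ± 1.52 CPM per kb for CELF1, 29.0 ± 3.27 for RBFOX2, 23.7 ± 14.9 for MSI1 (20 UMIs) and 10.2 ± 2.59 for MSI2. CELF2 had 5 UMIs and CELF4 1 over the 3 wells, while CELF3, CELF5, CELF6 and RBFOX1 had 0 of 238708 UMIs, a limit of 12.6 CPM. Celf1, Celf2, Celf4, Msi1, Msi2 and Rbfox2 were thus counted in all 7 populations, whereas Celf3, Celf6 and Rbfox1 were counted above 1 UMI per population in the retina alone.

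Other RNA-binding regulators of neuronal exons were followed on a list of 23 genes, of which 20 passed the low-count filter in the layers. Between ONL and GCL, the ONL had 6 higher (29.3% of all genes) and the GCL 8 (32.2% of all genes), with a median log2 fold change of 0.05 against 0.00 for all genes. The GCL side included the neuronal Elavl3 (-2.64, adjusted p = 2.6e-21), Nova2 (-2.94, adjusted p = 3.528e-21), Elavl4 (-2.89, adjusted p = 5e-18) and Rbfox3, the NeuN antigen and the remaining RBFOX gene (-2.72, adjusted p = 1.82e-16). The ONL side was led by the muscleblind genes Mbnl1 (1.54, adjusted p = 1.482e-16) and Mbnl2 (0.89, adjusted p = 1.471e-10), with Srrm4, which drives neuronal microexons (0.57, adjusted p = 0.0001264), and Tia1 (0.96, adjusted p = 0.0002122).

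The BCL against the GCL gave 3 list genes higher in the BCL (16.1% of all genes) and 7 higher in the GCL (20.4% of all genes), with a median of -0.19 against -0.02 for all genes. That split depended on the processing, at 3 and 4 by DESeq2, 5 and 4 with edgeR's default filter and 4 and 4 without section 1. Khdrbs3, a STAR family splicing factor, was 1.76 higher in the BCL on the log2 scale (adjusted p = 1.317e-15), the list gene nearest to Celf3 in its distribution, since it was also higher than in the ONL (-1.48 for ONL over BCL, adjusted p = 6.657e-13). Rbfox3 was 2.75 lower in the BCL than in the GCL (adjusted p = 5.863e-12) and did not differ detectably between ONL and BCL (0.03, 95% interval -0.80 to 0.86), as Rbfox1 had not. Between ONL and BCL, the ONL had 3 list genes higher (18.5% of all genes) and the BCL 5 (18.2% of all genes), with a median of -0.06 against 0.09 for all genes, among them Mbnl1 (1.69, adjusted p = 2.141e-13) and Nova2 (-2.56, adjusted p = 5.669e-15). Between TH+ and TH- cells, 0 of the 16 list genes tested passed by edgeR and 0 by DESeq2, and 2 had an unadjusted p below 0.05 (Elavl3 and Tial1), with a median of -0.15 against -0.05 for all genes.

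**Figure D5:**
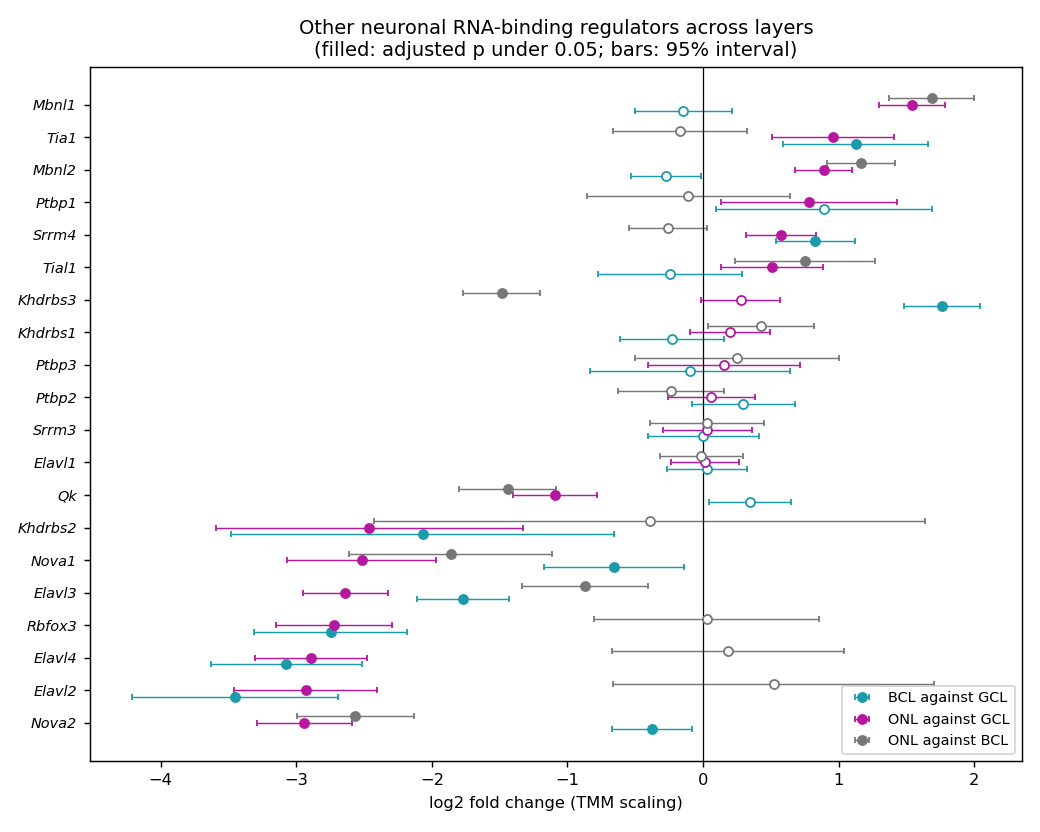
Log2 fold change (x axis, TMM scaling) with 95% intervals of the 20 other RNA-binding regulators tested in the layers, for the BCL against the GCL (teal), the ONL against the GCL (magenta) and the ONL against the BCL (gray). Filled points passed an adjusted p of 0.05; Mbnl1 lies at 1.54 and Nova2 at -2.94 for the ONL against the GCL.

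Genes known to carry exons that photoreceptors splice in their own way were followed as a list of 6: the cilium genes Ttc8, Cep290 and Cc2d2a, the disc gene Prom1, and the synaptic genes Slc17a7 and Cacna2d4. The list was drawn from genes that photoreceptors use, and it was chosen with earlier results of these data known. Higher levels in the ONL therefore follow in part from that choice and are no independent result. All 6 were higher in the ONL than in the GCL, by 2.22 (Cep290) to 3.35 (Prom1) on the log2 scale, beside 29.3% of all genes. From the BCL to the ONL, 5 of 6 were higher in the ONL (18.5% of all genes), and Cacna2d4 did not pass (-0.15, adjusted p = 0.4325). From the GCL to the BCL, 5 of 6 were higher in the BCL (16.1% of all genes), with Cep290 the exception (0.58, adjusted p = 0.1253). Of the 5, Cc2d2a did not pass without a low-count filter or without section 3 or section 4. Rod genes also took a larger share in the BCL (1.35% to 2.26%) than in the GCL (0.505% to 0.849%), and their part in these levels was not tested. In TH+ against TH- cells, 0 of 6 passed by edgeR and 0 by DESeq2, and 1, Slc17a7, had an unadjusted p below 0.05. With the section as a block, Slc17a7 passed by edgeR (0.62, adjusted p = 0.0004166). Rod genes also took a larger share of the TH+ library in each section (mean 3.19% against 1.84%), and their part in this difference was not tested. The counts sum over all isoforms of a gene, so they say how much of each gene was present and nothing of which exons it held.

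The genes whose pattern was most like that of a member were ranked by Pearson correlation of log2 CPM, over libraries that share sections and differ in depth. Over the 12 layer libraries, Msi1 was closest to Plch2, Gse1 and Rorb (r = 0.996 each), Ctbp2 (r = 0.995) and Nlk (r = 0.994). Rorb encodes a nuclear receptor of retinal development, and Ctbp2 encodes the ribbon protein RIBEYE. A pattern of this kind was common, since 580 of the 11314 other genes reached a correlation of 0.9 with Msi1. Over the 10 amacrine libraries, Celf6 was closest to Ctxn1 (r = 0.915), Ahi1 (r = 0.908), Arpp21 (r = 0.905), Gpx3 (r = 0.895) and Peg3 (r = 0.883), and 3 of 6011 genes reached 0.9. Ctxn1 and Arpp21 themselves held only 29 and 34 UMIs in total, and Celf6 held 21 in TH+ and 11 in TH- libraries. In TH+ sections 1, 3, 4 and 5, Ctxn1 and Celf6 had identical CPM values. Both rankings used the values that chose Msi1 and Celf6, so they favor genes high in the same population. At such low counts, the number of genes that reached 0.9 with Celf6 does not measure how rare its pattern is.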

How the data were processed

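Light-Seq libraries of 4 layer sections, 5 amacrine sections and 3 mixed-culture wells were analysed. Per the labels and the methods of the study, the authors took UMIs with UMI-tools 1.1.1, mapped reads with STAR 2.7.9a to GRCm39 (mm39) or hg38 with GENCODE genes, discarded reads with several matches, assigned exonic reads with featureCounts at its default settings and collapsed UMIs per gene. The deposited values used here are UMI counts, whole numbers without normalization, and 0 count columns of the whole-series tables matched no sample. The deeper mixed-culture run, the TPM and log2 columns, and the authors' fold change and p-value tables were not used.

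edgeR 4.0.16 in R 4.3.3 tested the counts by its quasi-likelihood F-test (TMM scaling, filterByExpr at 3 UMIs and at 10 summed over libraries, Benjamini-Hochberg at 0.05), as 1 fit over 12 layer libraries and 1 over 10 amacrine libraries. SE was taken as the absolute log2 fold change over the root of F. All 10 members passed both filters. CPM used the library total with no pseudocount, and CPM per kb the authors' gene length, with GENCODE M39 exon bases as an alternative chosen after seeing the data. A limit for a count of 0 is 3 counts of the total. edgeR's common coefficient of biological variation came to 9.16% in layers and 16.1% in amacrine cells. Procedures were tested on simulated counts that gave all genes this common variation. Between TH+ and TH-, 34.4% of simulated 2-fold and 81.1% of 4-fold changes were called. In the layer comparisons, 39.6% to 61.5% of 2-fold and 76.3% to 92.8% of 4-fold changes were called. A result that did not pass therefore leaves room for a 2-fold difference.

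Named genes were all members, Rbfox3 and up to 4 genes per list, direction and comparison with the smallest adjusted p, and the 5 genes most correlated with Msi1 or Celf6 (log2 CPM, prior count 2). Members and lists were chosen with earlier results of these data known. Section numbers pair libraries, since same-numbered libraries were cut from the same section. Residuals of same-section libraries correlated at 0.012 to 0.049 over 12 layer pairs and at 0.029 to 0.257 over 5 amacrine pairs. Alternatives were DESeq2 1.42.0, other size factors, no filter, edgeR's default filter (10 UMIs, 15 in total), a block for the section, removal of mitochondrially encoded genes, and leaving out each section in turn.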

Additional observations from a re-analysis of the deposited data

Results flagged for a closer look

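In 4 of the 50 combinations of a member and a population tested, 1 library lay far from the others by Dixon's criterion, which chance passes in about 1 in 20 groups. Msi1 in ONL section 1 was 1790 CPM, below 2020 to 2047 CPM in the other ONL sections. Rbfox1 in BCL section 2 was 0.0 CPM, with 0 UMIs against 11 or 12 in the other BCL sections. Celf1 in TH- section 4 was 259.6 CPM, above 174 to 194 CPM in the others. Msi2 in TH- section 2 was 838.9 CPM, above 664 to 712 CPM in the others. The cause of these values was not tested.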

How the results depend on the processing

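The number of called genes of the members and of each list, both directions together, kept within 1.5 times its value under the alternatives, except in the list of photoreceptor exon genes between TH+ and TH- cells, where the count went from 0 to 1 (Slc17a7) with the section as a replicate block (log2 fold change 0.62, adjusted p = 0.0004166), and lay between 0 and 1 when single sections were left out, with Slc17a7 gained without section 2 (0.71, adjusted p = 0.005131). By direction, the RNA-binding list in the BCL against the GCL went from 3 and 7 to 3 and 4 by DESeq2, 5 and 4 with edgeR's default filter and 4 and 4 without section 1, and the members higher in the ONL than in the BCL from 1 to 2 with the replicate block. The number of members called was 5 to 6 for the ONL against the BCL, 7 to 9 for the ONL against the GCL, 7 to 9 for the BCL against the GCL and 0 throughout for TH+ against TH-. The replicate block added 1 member call, Celf2 in the ONL against the BCL (0.27, adjusted p = 0.04195), and lost none. It raised the calls over all genes between TH+ and TH- from 50 to 148, while DESeq2 gave 37 and leaving out single sections gave 29 to 73. edgeR's default filter left Celf6 untested in the layers. No member changed direction among the differences that passed the test. The level of Msi1 moved from 1970 to 2230 CPM in the ONL and from 1228 to 1110 CPM in the BCL with TMM library sizes, and to 1311 CPM in the BCL without mitochondrially encoded genes. On the RNA-binding list, Tial1 and Ptbp1 in the ONL against the GCL and Nova1, Nova2 and Khdrbs2 in the BCL against the GCL were each lost under some of the alternatives, as was Tial1 in the ONL against the BCL, and on the photoreceptor list Cc2d2a in the BCL against the GCL. Exon lengths of GENCODE M39 were an alternative chosen after seeing the data. With them, 34 of the levels and shares per kilobase were marked as moved and 92 stayed within 1 SD. The 34 include the level and the share of Celf6 in 3T3 cells, which were 0 by both lengths and did not move. In the GCL, Rbfox1 went from 95.7 to 43.2 CPM per kb. Depth limits Celf6, with 1 to 11 UMIs in a TH+ library, and every TH+ value.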
